A study of Mus musculus with 12 samples.

Results

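The 41 genes described here encode lysosomal proteins, parts of the autophagy pathway and the TFEB family of transcription factors. They were chosen by gene symbol for these known roles, with earlier results of these data known. All 41 are in each of the 12 deposited libraries, which together list 16145 genes. RNA was sequenced from mouse bone marrow-derived macrophages, cultured from marrow for 7 days in M-CSF, the cytokine that drives macrophage differentiation. There are 4 groups with 3 replicates each. Wild-type (WT) cells were given 4-OI (4-octyl itaconate, a cell-permeable itaconate ester) at 120 µM for 15 h, or hemin (oxidised heme, an iron porphyrin) at 15 µM for 12 h. Irg1KO cells, from mice labelled as lacking Irg1 (now Acod1, the enzyme that makes itaconate), received vehicle for 12 h, and WT cells with vehicle for 12 h are the common control. The labels give no age, sex or strain, and no vehicle group of 15 h, so 4-OI and its longer time cannot be told apart. Nor do they say that replicates are separate animals or separate cultures, so the spread behind every p-value may be technical.

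Lysosomes are acidic organelles in which hydrolases break down material delivered by endocytosis, phagocytosis and autophagy. The vacuolar ATPase pumps protons into them, membrane proteins such as LAMP1 line them, and NPC1 and NPC2 export cholesterol. In autophagy, receptors such as p62 (Sqstm1) carry ubiquitin-tagged cargo to membranes coated with LC3 and GABARAP proteins, which then fuse with lysosomes. TFEB, TFE3 and MITF bind a short element with the core CACGTG in the promoters of many such genes, and the degradative work of macrophages depends on this set. Itaconate and 4-OI are known to modify KEAP1, the inhibitor of the transcription factor NRF2, and Sqstm1 is a known NRF2 target.

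The libraries held 9405112 to 22390882 expected counts (the read counts per gene estimated by the authors' software). Levels below are CPM, counts scaled to a common library size with TMM factors, and fold changes are log2 values with their standard error (SE), from 1 edgeR fit of all 12 libraries. Counts at the Acod1 locus did not separate the genotypes: 20.5 against 27.7 CPM on average in Irg1KO and WT vehicle cells (-0.48, SE 0.26, adjusted p = 0.194). All 12 listed macrophage markers were detected, with summed levels of 27500 to 29300 CPM with 4-OI, 27400 to 29800 with hemin, 26200 to 29200 in Irg1KO and 26900 to 27500 CPM with vehicle. The 12 fibroblast and stromal markers summed to 11500 to 12900 CPM in Irg1KO against 1920 to 2350 CPM in WT vehicle, and neutrophil markers to 337 to 358 CPM with 4-OI against 81.9 to 92.2 CPM with vehicle. In bulk RNA, fewer cells of a type and less RNA per cell cannot be told apart.

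Levels per transcript length are given as the authors' FPKM. With vehicle, Ctsd (cathepsin D, an aspartic protease) stood highest at 5555 ± 222 FPKM (SD, n = 3), ahead of Ctsb (cathepsin B) at 4163 ± 357, Gpnmb (a transmembrane glycoprotein of lysosomes and melanosomes) at 2828 ± 109 and Psap (prosaposin) at 2231 ± 109 FPKM. Neighbours in this order from Ctsd down to Grn did not overlap between libraries, whereas Lamp1 at 975 ± 36.2 and Ctsl at 876 ± 69.3 FPKM did. The TFEB family was far lower, with Tfe3 at 44.0 ± 2.0, Mitf at 11.0 ± 0.19 and Tfeb at 7.08 ± 0.17 FPKM. Ulk1 (the kinase that starts autophagy) and Optn (optineurin, an autophagy receptor) were the lowest members at 5.59 ± 0.60 and 5.24 ± 0.62 FPKM, and these overlapped. The 41 genes took 5.39 to 5.45% of all counts with 4-OI, 4.97 to 5.09% with hemin, 4.98 to 5.07% in Irg1KO and 5.05 to 5.18% with vehicle.

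**Figure D1:**
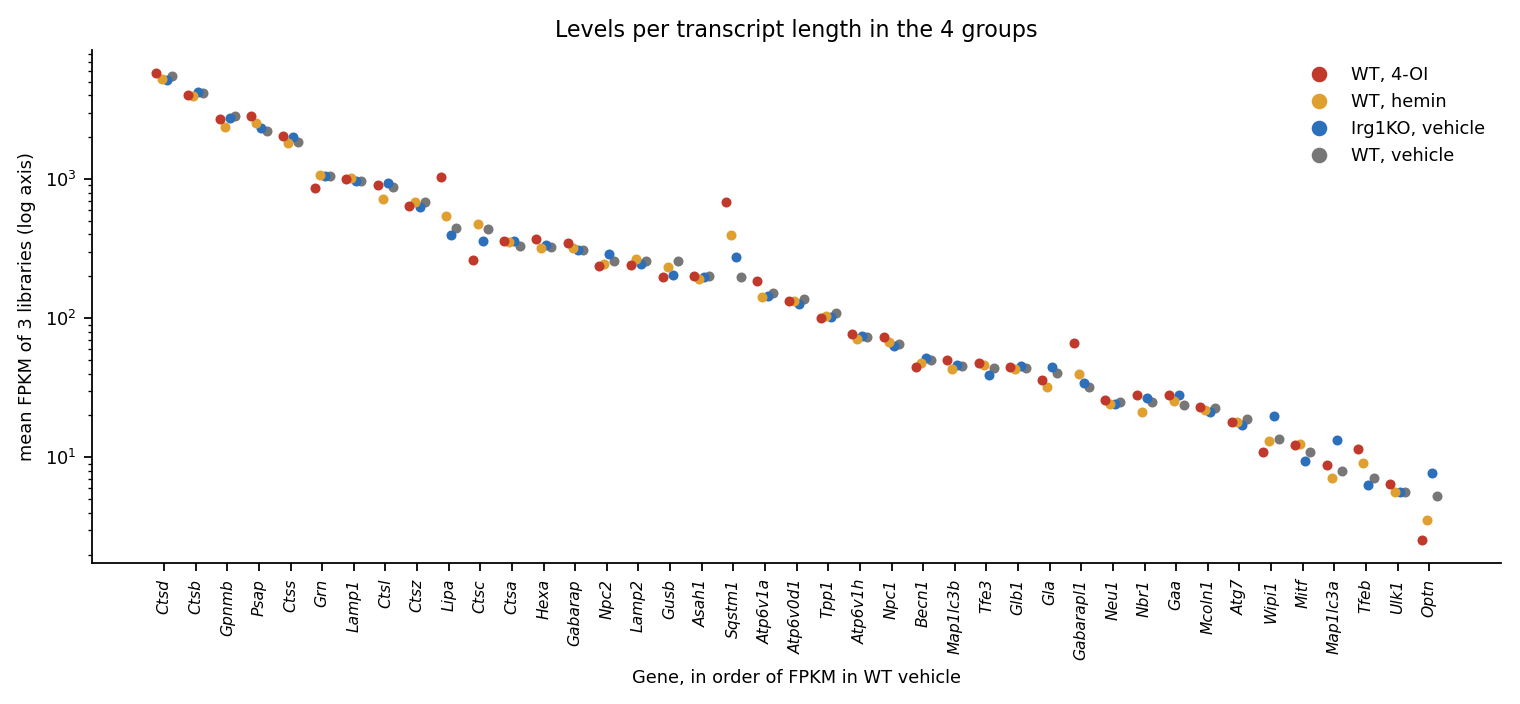
Mean FPKM of each of the 41 genes (vertical log axis) in the 4 groups, n = 3 libraries each, ordered by the level in WT vehicle cells. The groups lie close together for most genes, and the 4-OI points of Lipa, Sqstm1, Gabarapl1 and Tfeb stand above the other groups.

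Promoters are shown for 6 members because the TFEB family's element lies in them or is missing from them: Atp6v1a, Ctsd, Mcoln1 and Lamp1 hold CACGTG, Psap holds the antioxidant response core TGACNNNGC to which NRF2 binds, and Sqstm1 holds neither. The sequences are from RefSeq (build GRCm38.p6), 250 bases before to 50 after the annotated start, 5′ to 3′ on the gene's strand. Capitals mark matches on either strand to CACGTG or TGACNNNGC.
Atp6v1a (chr16:44139210-44139509, minus strand): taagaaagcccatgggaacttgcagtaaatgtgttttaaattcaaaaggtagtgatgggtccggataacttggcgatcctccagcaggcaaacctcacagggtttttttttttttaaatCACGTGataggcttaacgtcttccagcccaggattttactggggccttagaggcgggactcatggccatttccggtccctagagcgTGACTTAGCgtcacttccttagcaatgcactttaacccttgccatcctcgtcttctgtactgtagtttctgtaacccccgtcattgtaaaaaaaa
Ctsd (chr7:142387778-142388077, minus strand): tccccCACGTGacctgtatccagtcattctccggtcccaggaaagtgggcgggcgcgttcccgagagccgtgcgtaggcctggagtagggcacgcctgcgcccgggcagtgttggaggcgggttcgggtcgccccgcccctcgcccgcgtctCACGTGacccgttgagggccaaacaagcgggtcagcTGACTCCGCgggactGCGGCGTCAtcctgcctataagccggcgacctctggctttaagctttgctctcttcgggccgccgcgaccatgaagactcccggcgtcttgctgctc
Mcoln1 (chr8:3500269-3500568, plus strand): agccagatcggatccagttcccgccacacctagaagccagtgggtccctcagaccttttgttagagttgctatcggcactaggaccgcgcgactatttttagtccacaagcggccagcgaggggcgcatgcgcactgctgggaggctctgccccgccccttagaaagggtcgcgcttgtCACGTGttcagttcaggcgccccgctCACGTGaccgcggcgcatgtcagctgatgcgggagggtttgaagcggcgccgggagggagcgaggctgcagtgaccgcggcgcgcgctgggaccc
Lamp1 (chr8:13158911-13159210, plus strand): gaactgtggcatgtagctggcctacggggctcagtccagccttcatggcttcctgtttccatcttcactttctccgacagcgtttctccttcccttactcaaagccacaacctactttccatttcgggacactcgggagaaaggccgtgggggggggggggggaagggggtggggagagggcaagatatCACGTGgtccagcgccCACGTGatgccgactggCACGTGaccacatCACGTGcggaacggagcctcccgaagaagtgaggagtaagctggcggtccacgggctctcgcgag
Psap (chr10:60277378-60277677, plus strand): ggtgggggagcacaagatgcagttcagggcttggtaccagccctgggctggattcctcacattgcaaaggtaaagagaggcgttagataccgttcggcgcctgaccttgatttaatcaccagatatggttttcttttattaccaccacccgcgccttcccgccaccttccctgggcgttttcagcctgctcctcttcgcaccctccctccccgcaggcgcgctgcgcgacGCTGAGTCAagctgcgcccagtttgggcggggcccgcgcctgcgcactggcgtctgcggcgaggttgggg
Sqstm1 (chr11:50210771-50211070, minus strand): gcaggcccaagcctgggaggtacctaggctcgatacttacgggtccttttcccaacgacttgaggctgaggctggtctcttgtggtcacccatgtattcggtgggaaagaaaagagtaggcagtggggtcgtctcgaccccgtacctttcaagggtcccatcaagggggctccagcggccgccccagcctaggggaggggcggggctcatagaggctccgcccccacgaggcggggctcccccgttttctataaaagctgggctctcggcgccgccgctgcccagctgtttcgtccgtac

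Of the 41 members, 35 matched a promoter in this table. CACGTG was found in 11 of the 35, against 8.09% of the 27025 genes with a promoter there. The longer TCACGTGA, which contains CACGTG, was in 6 (Atp6v0d1, Atp6v1a, Ctsa, Ctsd, Gla and Mcoln1), against 1.12% of all genes. TGACNNNGC was in 8 of the 35 and in 13.99% of all genes. By their call with 4-OI in the count test, given below, CACGTG was in 8 of 22 members that were higher, 0 of 5 that were lower and 3 of 8 that were not called. The 3 not called were Atg7, Atp6v0d1 and Gla. This split depends on the scale. On log2(FPKM + 1), also below, Ctsd, Ctsl, Glb1, Lamp1 and Mcoln1 of the 8 were not called, and Gla was called lower. Of the higher members, Sqstm1, Lipa, Gabarapl1 and Tfeb held no CACGTG. A match describes letters in this window, not binding.

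The comparison of 4-OI with vehicle asks which of the 41 genes differ in treated WT macrophages. Most stood higher after 4-OI, led by Sqstm1, Lipa (lysosomal acid lipase), Gabarapl1 and Tfeb, while Optn and Ctsc (cathepsin C) led the lower ones. A gene is called at an adjusted p under 0.05 in edgeR's quasi-likelihood F test, adjusted by the Benjamini-Hochberg method over all 12148 genes tested. With 4-OI, 31 of 41 members were called, beside 50.4% of all genes. Higher were 26 (63.4%), where 25.4% of all genes were higher, and 5 were lower (12.2%), where 25% of all genes were. The median log2 fold change was 0.191 over the members and -0.0031 over all genes. The members are abundant: with vehicle the lowest, Optn, stood at percentile 51.8 of all listed genes by FPKM. All genes were not matched to the members for level, which affects how readily small differences are called. Most differences were small: 6 called members differed more than 1.5-fold and 3 more than 2-fold, beside 18 and 7.95% of all genes. The split depends on the scale. On log2(FPKM + 1) with limma, 15 members were higher and 6 lower, beside 1655 genes higher and 4489 lower in all, against 3083 and 3043 in the count test, and the median over all genes moved to -0.12. The 15 were among the 26, and were 36.6% of the members where 15.1% of all genes were higher. The 11 that did not pass there were Asah1, Atp6v1h, Ctsd, Ctsl, Glb1, Lamp1, Map1lc3a, Mcoln1, Neu1, Tfe3 and Ulk1. Of the neutrophil markers, 2 of 4 tested were called higher with 4-OI, and Ly6g was at 0 in all 4 groups. Endothelial markers summed to 8.59 to 9.98 CPM with 4-OI against 34.3 to 39.2 CPM with vehicle, 2 of 4 tested being called lower and Tek at 0 with 4-OI, and 2 of 3 tested osteoclast markers were called higher (43.5 to 46.1 against 37.4 to 37.5 CPM in sum). Of the macrophage markers 3 of 12 were called higher and 5 lower, and of 10 tested stromal markers 2 higher and 2 lower. The part of these markers in the members' values was not tested.

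Fewer members were called with hemin, which was set against the same 3 vehicle libraries. Sqstm1 was the single called member over 2-fold, beside 1% of all genes. The other higher members (Tfeb, Gabarapl1, Lipa, Psap, Mitf, Ctsc and Ctsa) rose by less than 1.5-fold. In all, 13 of 41 members were called, beside 17.2% of all genes. The 8 higher members are 19.5% of the set, where 9.48% of all genes were higher, and the 5 lower ones are 12.2%, where 7.74% were lower. The median log2 fold change was 0.0261 over the members and -0.00595 over all genes. Without hemin replicate 3 the number lower was 3, since Optn (-0.50 with all libraries) and Nbr1 were then not called (-0.43, adjusted p = 0.054, and -0.14, adjusted p = 0.103). On log2(FPKM + 1), 5 members were higher and 5 lower, beside 627 genes higher and 1449 lower in all, against 1152 and 940 in the count test, and Ctsa, Ctsc and Mitf did not pass there. Endothelial markers summed to 16.4 to 17.9 CPM with hemin against 34.3 to 39.2 CPM with vehicle (1 of 4 tested called lower), and neutrophil markers to 93.4 to 102 CPM with hemin against 81.9 to 92.2 CPM with vehicle (1 of 4 called higher). Of 10 tested stromal markers 2 were called lower with hemin, of 3 osteoclast markers 1 higher, and of 12 macrophage markers 4 higher and 2 lower; their part was not tested.

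In Irg1KO cells, again against the same vehicle libraries, the members with the largest differences were autophagy genes. Map1lc3a, Optn, Wipi1 and Sqstm1 rose by 0.51 to 0.80 on the log2 scale, and Gusb, Ctsc, Mitf and Lipa fell by 0.14 to 0.28. Of the 41 members 15 were called, beside 39.8% of all genes. Higher were 11 (26.8%), where 23.5% of all genes were higher, and 4 were lower (9.76%), where 16.3% were. None differed more than 2-fold, beside 12% of all genes, and the median log2 fold change was 0.0384 over the members and -0.000335 over all genes. On log2(FPKM + 1), 7 members were higher (17.1%), without Ctsa, Ctsl, Ctss and Nbr1, and 6 were lower. Of all genes 17.8% were higher and 19.1% lower there. The number lower was 7 without vehicle replicate 1, when Atg7, Atp6v0d1 and Tfe3 joined (-0.17, -0.15 and -0.18). It was also 7 with RLE factors and 8 with DESeq2, where 20.1% and 17.2% of all genes were lower. Each of these differences stands beside the gap in stromal markers: 10 of 10 tested fibroblast and stromal markers were called higher in Irg1KO. Osteoclast markers summed to 70.9 to 80.3 CPM against 37.4 to 37.5 CPM in WT vehicle. Of these, 1 of 3 tested was called higher, Ctsk, at a mean of 53.9 against 16.7 CPM. Neutrophil markers summed to 40.6 to 44.3 CPM in Irg1KO against 81.9 to 92.2 CPM in WT vehicle (1 of 4 tested called higher, 2 lower), and of 12 macrophage markers 2 were called higher and 3 lower. Their part in the members' values was not tested.

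Set directly against each other, 4-OI exceeded hemin for most of the members that differed, although dose and hours differ between the compounds. Of the 41 members 27 were called, beside 42.3% of all genes. Higher with 4-OI were 23 (56.1%), where 20.6% of all genes were higher, and 4 were lower (9.76%), where 21.7% were. No called member differed by more than 2-fold, beside 5.61% of all genes. On log2(FPKM + 1), 16 members were higher and 6 lower, beside 1658 genes higher and 3423 lower in all, against 2500 and 2636 in the count test. Asah1, Atp6v1h, Ctsa, Gaa, Gabarap, Neu1 and Ulk1 did not pass there. Neutrophil markers summed to 337 to 358 CPM with 4-OI against 93.4 to 102 CPM with hemin (2 of 4 tested called higher) and endothelial markers to 8.59 to 9.98 against 16.4 to 17.9 CPM (2 of 4 called lower). Of 12 macrophage markers 4 were called lower with 4-OI than with hemin, and of 3 osteoclast markers 2 higher; their part was not tested.

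**Figure D2:**
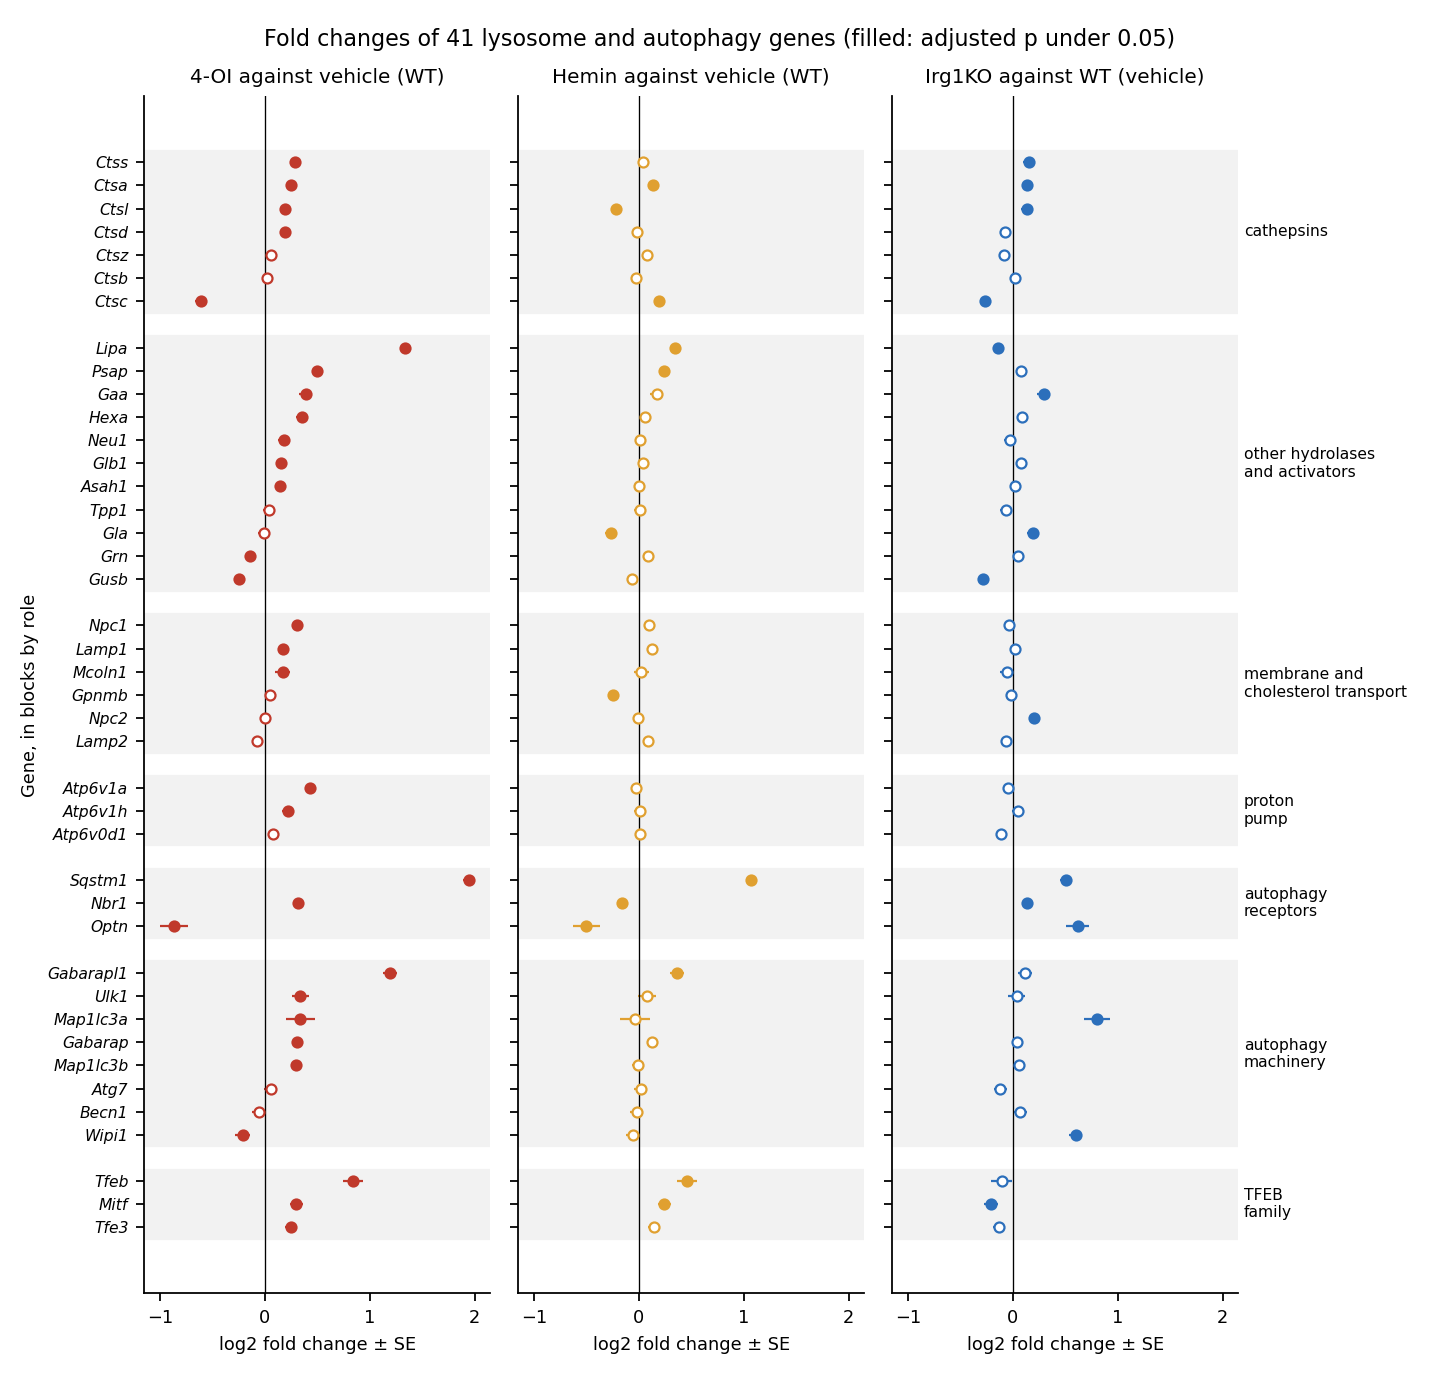
Log2 fold change (horizontal axis, bars are SE) of the 41 genes in blocks by role, from left to right for 4-OI, hemin and Irg1KO, each against WT vehicle with n = 3 libraries a group. Filled points passed an adjusted p of 0.05; 31 are filled for 4-OI, 13 for hemin and 15 for Irg1KO.

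The 7 cathepsins, proteases of the lysosome, did not move as a block. With 4-OI, Ctss, Ctsa, Ctsl and Ctsd rose by 0.19 to 0.29 on the log2 scale, Ctsc fell, and Ctsb and Ctsz (both cysteine cathepsins) were not called (0.02 and 0.06). Ctsc, the dipeptidyl peptidase that activates granule serine proteases, had 828, 829.8 and 849.8 CPM in the 4-OI libraries, 1528, 1412 and 1434 CPM in the hemin libraries, 1051, 999 and 1145 CPM in the Irg1KO libraries and 1352, 1201 and 1276 CPM in the vehicle libraries. The 4 groups did not overlap, with 4-OI lowest and hemin highest. Ctsc was lower with 4-OI (-0.61, SE 0.052, adjusted p = 1.42e-12) and in Irg1KO (-0.26, SE 0.051, adjusted p = 7.55e-05) and higher with hemin (0.19, SE 0.051, adjusted p = 0.00682), the last not without vehicle replicate 2 (0.15, adjusted p = 0.0574). Between 4-OI and hemin the difference was -0.80, SE 0.052 (adjusted p = 1.62e-15).

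Ctsl, cathepsin L, had 1542, 1573 and 1425 CPM in the 4-OI libraries, 1134, 1146 and 1142 CPM in the hemin libraries, 1433, 1527 and 1394 CPM in the Irg1KO libraries and 1222, 1441 and 1300 CPM in the vehicle libraries. Hemin was below every other library, and the 4-OI and vehicle libraries overlapped. The fall with hemin (-0.21, SE 0.053, adjusted p = 0.00377) was not called without vehicle replicate 2 (-0.14, adjusted p = 0.069). The rise with 4-OI was 0.20, SE 0.053 (adjusted p = 0.00213), and 4-OI exceeded hemin by 0.41, SE 0.053 (adjusted p = 6.07e-08). In Irg1KO the difference of 0.14 (adjusted p = 0.039) was lost when Irg1KO replicate 1 or 2 or vehicle replicate 1 or 3 was left out (adjusted p = 0.068 to 0.29), and with RLE or upper-quartile factors, no filter, DESeq2 or only the groups compared (adjusted p = 0.0504 to 0.1).

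The abundant cathepsins shifted by small amounts. Ctsd had 11380, 10850 and 11190 CPM with 4-OI and 9444, 10270 and 9566 CPM with vehicle, which do not overlap (0.19, SE 0.048, adjusted p = 0.00105). It was not called with hemin, and in Irg1KO it was called only with DESeq2, as lower (-0.10, adjusted p = 0.0323), while Ctsz was called lower there with RLE factors (-0.11, adjusted p = 0.048) and DESeq2 (-0.11, adjusted p = 0.0206). Ctss, cathepsin S of antigen processing, rose with 4-OI (0.29, SE 0.051, adjusted p = 9.98e-06). Its rise in Irg1KO (0.15, adjusted p = 0.0167) was lost without Irg1KO replicate 3 or vehicle replicate 3 (adjusted p = 0.134 and 0.136). Ctsa, which protects neuraminidase and β-galactosidase in the lysosome, was called higher in every comparison, by 0.25 with 4-OI, 0.14 with hemin and 0.13 in Irg1KO against vehicle, and by 0.11 with 4-OI against hemin. Only the call with 4-OI against vehicle held in every fit that left out 1 library. Ctsa was lost with hemin without any of its 3 replicates or vehicle replicate 1 or 3 (adjusted p = 0.0526 to 0.158) and in the fit limited to both groups (0.0635), in Irg1KO without replicate 1 or 2 or vehicle replicate 1 or 3 (0.0573 to 0.128) and with no filter (0.0783), and between 4-OI and hemin without any 1 of the 6 libraries (0.0725 to 0.106), with upper-quartile factors (0.108), no filter (0.0812) or only the groups compared (0.0541).

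Among the 11 other hydrolases and their activators, 7 rose with 4-OI (63.6%, where 25.4% of all genes were higher) and 2 fell (18.2%, where 25% of all genes were lower). Lipa, the acid lipase that frees cholesterol and fatty acids from lipoprotein lipids, had 3162, 3239 and 3101 CPM in the 4-OI libraries, 1567, 1566 and 1647 CPM in the hemin libraries, 1090, 1146 and 1160 CPM in the Irg1KO libraries and 1196, 1232 and 1323 CPM in the vehicle libraries. The 4 groups did not overlap, and the 4-OI level was more than 2-fold that of vehicle. The log2 fold change was 1.34 with 4-OI (SE 0.048, adjusted p = 2.56e-23), 0.35 with hemin (adjusted p = 7.30e-07) and 0.99 for 4-OI against hemin (adjusted p = 4.10e-19). In Irg1KO Lipa was lower (-0.14, SE 0.048, adjusted p = 0.0158), a call lost without Irg1KO replicate 1 (-0.12, adjusted p = 0.0936) or vehicle replicate 3 (-0.11, adjusted p = 0.116).

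Psap encodes the precursor of the saposins, activators of sphingolipid breakdown. It had 7721, 7660 and 7999 CPM in the 4-OI libraries, 6323, 6417 and 6832 CPM in the hemin libraries, 5752, 5855 and 5928 CPM in the Irg1KO libraries and 5253, 5533 and 5790 CPM in the vehicle libraries. Levels with 4-OI and with hemin lay above all vehicle libraries, and Irg1KO overlapped with vehicle. Psap rose with 4-OI (0.50, SE 0.049, adjusted p = 6.37e-11) and with hemin (0.24, SE 0.049, adjusted p = 0.000392), more with 4-OI than with hemin (0.26, SE 0.049, adjusted p = 4.39e-05). In Irg1KO it was not called (0.08, SE 0.049, adjusted p = 0.191).

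Gusb, β-glucuronidase, and Grn, progranulin, were the hydrolase-group members that fell with 4-OI. Gusb had 573, 561 and 579.8 CPM in the 4-OI libraries, 612, 675 and 660.3 CPM in the hemin libraries, 559, 567 and 548 CPM in the Irg1KO libraries and 652, 690.4 and 692 CPM in the vehicle libraries. The 4-OI and Irg1KO libraries lay below all vehicle libraries (-0.25, SE 0.047, adjusted p = 2.86e-05 and -0.28, SE 0.046, adjusted p = 5.18e-06), while hemin and vehicle overlapped. Grn had 1865, 1855 and 1882 CPM in the 4-OI libraries, 2157, 2239 and 2173 CPM in the hemin libraries, 2102, 2098 and 2189 CPM in the Irg1KO libraries and 2159, 2058 and 1971 CPM in the vehicle libraries. Its 4-OI libraries were the lowest 3 of all 12. The fall with 4-OI against vehicle (-0.14, SE 0.046, adjusted p = 0.00915) was lost without vehicle replicate 1 (-0.11, adjusted p = 0.0712), and against hemin it was -0.23, SE 0.046 (adjusted p = 9.72e-05).

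Gla, α-galactosidase A, had 115, 113 and 110.0 CPM in the 4-OI libraries, 91.3, 90.0 and 102 CPM in the hemin libraries, 133, 126 and 129.5 CPM in the Irg1KO libraries and 109.5, 119 and 112 CPM in the vehicle libraries. Hemin libraries were the lowest and Irg1KO libraries the highest, and 4-OI overlapped with vehicle. Gla fell with hemin (-0.26, SE 0.053, adjusted p = 0.000303) and rose in Irg1KO (0.19, SE 0.051, adjusted p = 0.00267), and its 4-OI value was -0.01 (adjusted p = 0.908). On log2(FPKM + 1) Gla was called lower with 4-OI as well (-0.15, adjusted p = 0.0211).

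The remaining hydrolases moved by less than 1.5-fold. With 4-OI, Gaa (acid α-glucosidase, which degrades glycogen) rose by 0.39 and Hexa (the α subunit of β-hexosaminidase) by 0.35. Neu1 (neuraminidase), Glb1 (β-galactosidase) and Asah1 (acid ceramidase) rose by 0.18, 0.16 and 0.15. The Asah1 call was lost without vehicle replicate 3 (0.11, adjusted p = 0.0801), and its expected counts are not whole in any library, which marks reads divided between genes. Tpp1, tripeptidyl peptidase, was not called in any comparison, with log2 values of 0.04 with 4-OI, 0.01 with hemin and -0.07 in Irg1KO. Gaa also rose in Irg1KO (0.29, SE 0.061, adjusted p = 0.000164). With hemin its value was 0.17 (adjusted p = 0.0504), which passed without hemin replicate 1 or 3 or vehicle replicate 3 (adjusted p = 0.0103 to 0.0411).

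Of the 6 membrane and cholesterol transport genes, 3 rose with 4-OI, beside 25.4% of all genes, and none fell, beside 25%. Npc1, the membrane protein that exports cholesterol, rose by 0.31 (adjusted p = 8.33e-07), whereas Npc2, its soluble partner, had 0.01 (adjusted p = 0.916). Npc2 rose in Irg1KO (0.20, SE 0.051, adjusted p = 0.00153), where Npc1 had -0.03 (adjusted p = 0.605). Lamp1 had 2293, 2296 and 2222 CPM with 4-OI and 1915, 2054 and 2049 CPM with vehicle (0.18, SE 0.05, adjusted p = 0.00289). Mcoln1, the calcium channel mucolipin-1, rose by 0.17 with 4-OI (adjusted p = 0.0395), but the call was lost without 4-OI replicate 2 or 3 or vehicle replicate 1 or 2 (adjusted p = 0.0978 to 0.189), with upper-quartile factors (adjusted p = 0.0994) and with DESeq2 (adjusted p = 0.054).

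Gpnmb is a known target of MITF and TFE3, raised in macrophages under lysosomal stress. It had 6662, 6389 and 6739 CPM in the 4-OI libraries, 5441, 5380 and 5293 CPM in the hemin libraries, 6279, 6370 and 6194 CPM in the Irg1KO libraries and 6277, 6518 and 6323 CPM in the vehicle libraries. The 3 hemin libraries were the lowest of the 12, and the other groups overlapped with vehicle. Gpnmb fell with hemin (-0.25, SE 0.046, adjusted p = 0.000126) and was higher with 4-OI than with hemin (0.30, SE 0.046, adjusted p = 1.70e-06). Its values were 0.05 with 4-OI (adjusted p = 0.385) and -0.02 in Irg1KO (adjusted p = 0.756).

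Lamp2, a membrane protein needed for fusion and for chaperone-mediated autophagy, had 624, 624 and 658 CPM in the 4-OI libraries, 725, 698 and 716 CPM in the hemin libraries, 652, 618 and 658 CPM in the Irg1KO libraries and 681, 675 and 653 CPM in the vehicle libraries. Hemin was above every other library, and the call was lower with 4-OI than with hemin (-0.17, SE 0.046, adjusted p = 0.00321). Against vehicle the values were -0.08 with 4-OI, 0.09 with hemin and -0.06 in Irg1KO, none of them called, although with upper-quartile factors 4-OI was (-0.11, adjusted p = 0.0378). Lamp2 was also the one member whose mean transcript length, as the authors deposited it, differed by over 5% with no overlap between the groups compared, for 4-OI against vehicle and for 4-OI against hemin; those of the other 3 groups overlapped with one another. It was 2593 ± 35.9 nucleotides with 4-OI, 2749 ± 43.7 with hemin, 2769 ± 24.0 in Irg1KO and 2788 ± 70.7 with vehicle (SD, n = 3 each). With 3 libraries against 3 an exact two-sided permutation test cannot go below p = 0.1, and the gene was picked out after its lengths were seen.

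Of the 3 proton pump members, 2 rose with 4-OI, beside 25.4% of all genes. None of the 3 was called with hemin or in Irg1KO in the count test of all 12 libraries. Of all genes 17.2% and 39.8% were called there. Atp6v1a, the catalytic subunit that hydrolyses ATP, had 830.5, 791 and 819.5 CPM in the 4-OI libraries, 600.3, 582 and 591 CPM in the hemin libraries, 586, 564 and 608 CPM in the Irg1KO libraries and 594, 602 and 615 CPM in the vehicle libraries. The 4-OI libraries lay above the other 9, which overlapped with one another (0.43, SE 0.045, adjusted p = 2.70e-10 against vehicle and 0.46, SE 0.045, adjusted p = 9.55e-11 against hemin). Atp6v1h, a regulatory subunit, rose by 0.22 with 4-OI (adjusted p = 0.00112), and Atp6v0d1, of the membrane sector, had 0.08 (adjusted p = 0.156). With hemin the log2 values of Atp6v1a, Atp6v1h and Atp6v0d1 were -0.03, 0.01 and 0.01, and in Irg1KO they were -0.04, 0.05 and -0.11. Atp6v0d1 passed as lower in Irg1KO without Irg1KO replicate 3 (adjusted p = 0.0467) or vehicle replicate 1 (adjusted p = 0.0228), with RLE or upper-quartile factors, with no filter, with DESeq2 and in the fit limited to both groups (adjusted p = 0.0204 to 0.0468).

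The 3 autophagy receptors moved in different directions with 4-OI and with hemin, and all 3 were called higher in Irg1KO, beside 23.5% of all genes. Sqstm1 (p62), which binds ubiquitin, LC3 and KEAP1, had 1396, 1393 and 1404 CPM in the 4-OI libraries, 707, 754 and 828 CPM in the hemin libraries, 510.0, 518 and 518 CPM in the Irg1KO libraries and 336, 391 and 361 CPM in the vehicle libraries. The 4 groups did not overlap, in the order 4-OI, hemin, Irg1KO and vehicle. The fold changes against vehicle were 1.95, SE 0.055, adjusted p = 2.42e-26 with 4-OI, 1.07, SE 0.054, adjusted p = 1.45e-17 with hemin and 0.51, SE 0.054, adjusted p = 6.07e-10 in Irg1KO. Sqstm1 was also higher with 4-OI than with hemin (0.87, SE 0.053, adjusted p = 3.97e-16). Its printed promoter holds no CACGTG and no TGACNNNGC, and sequence outside that window was not searched.

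The NRF2 target genes Nqo1, Gclm and Hmox1, read as checks of the compounds, stand beside this. Nqo1, a quinone reductase, had log2 fold changes of 2.80 with 4-OI, 0.80 with hemin and 0.59 in Irg1KO, all called. Gclm, a subunit of the enzyme that starts glutathione synthesis, had 2.13, 1.42 and 0.14 in the same order, all called. Hmox1, heme oxygenase 1, had 2.26 with 4-OI and 2.97 with hemin, both called, and 0.08 in Irg1KO (adjusted p = 0.318). Nqo1 and Gclm were higher with 4-OI than with hemin (2.00 and 0.71), whereas Hmox1 was lower (-0.71). The part of NRF2 in the Sqstm1 values was not tested.

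Optn, which carries damaged mitochondria and bacteria to autophagosomes, had 7.67, 5.97 and 7.51 CPM in the 4-OI libraries, 10.1, 8.93 and 8.20 CPM in the hemin libraries, 22.4, 20.0 and 15.9 CPM in the Irg1KO libraries and 12.6, 11.6 and 14.4 CPM in the vehicle libraries. The groups did not overlap, with Irg1KO highest and 4-OI lowest. Optn fell with 4-OI (-0.86, SE 0.14, adjusted p = 2.01e-06) and with hemin (-0.50, SE 0.13, adjusted p = 0.00597), and rose in Irg1KO (0.62, SE 0.11, adjusted p = 2.75e-05). The hemin call was lost without hemin replicate 3 (-0.43, adjusted p = 0.054). Between 4-OI and hemin the difference missed the threshold (-0.36, SE 0.15, adjusted p = 0.0508) and passed without 4-OI replicate 1 or hemin replicate 3 (adjusted p = 0.0444 and 0.0415), as well as in 6 other alternatives. Nbr1, a receptor related to p62, rose with 4-OI (0.32, SE 0.048, adjusted p = 8.03e-07) and fell with hemin (-0.16, SE 0.05, adjusted p = 0.0241). Its hemin call was lost without hemin replicate 2 or 3 or vehicle replicate 3 (adjusted p = 0.103 to 0.116) and with only the groups compared (0.0543). The difference between 4-OI and hemin was 0.47 (adjusted p = 4.76e-10). In Irg1KO Nbr1 had 0.14 (adjusted p = 0.0204), a call lost without Irg1KO replicate 1 or 3 or vehicle replicate 1 or 2 (adjusted p = 0.0628 to 0.0816), with RLE factors, no filter or DESeq2 (0.0556 to 0.103).

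**Figure D3:**
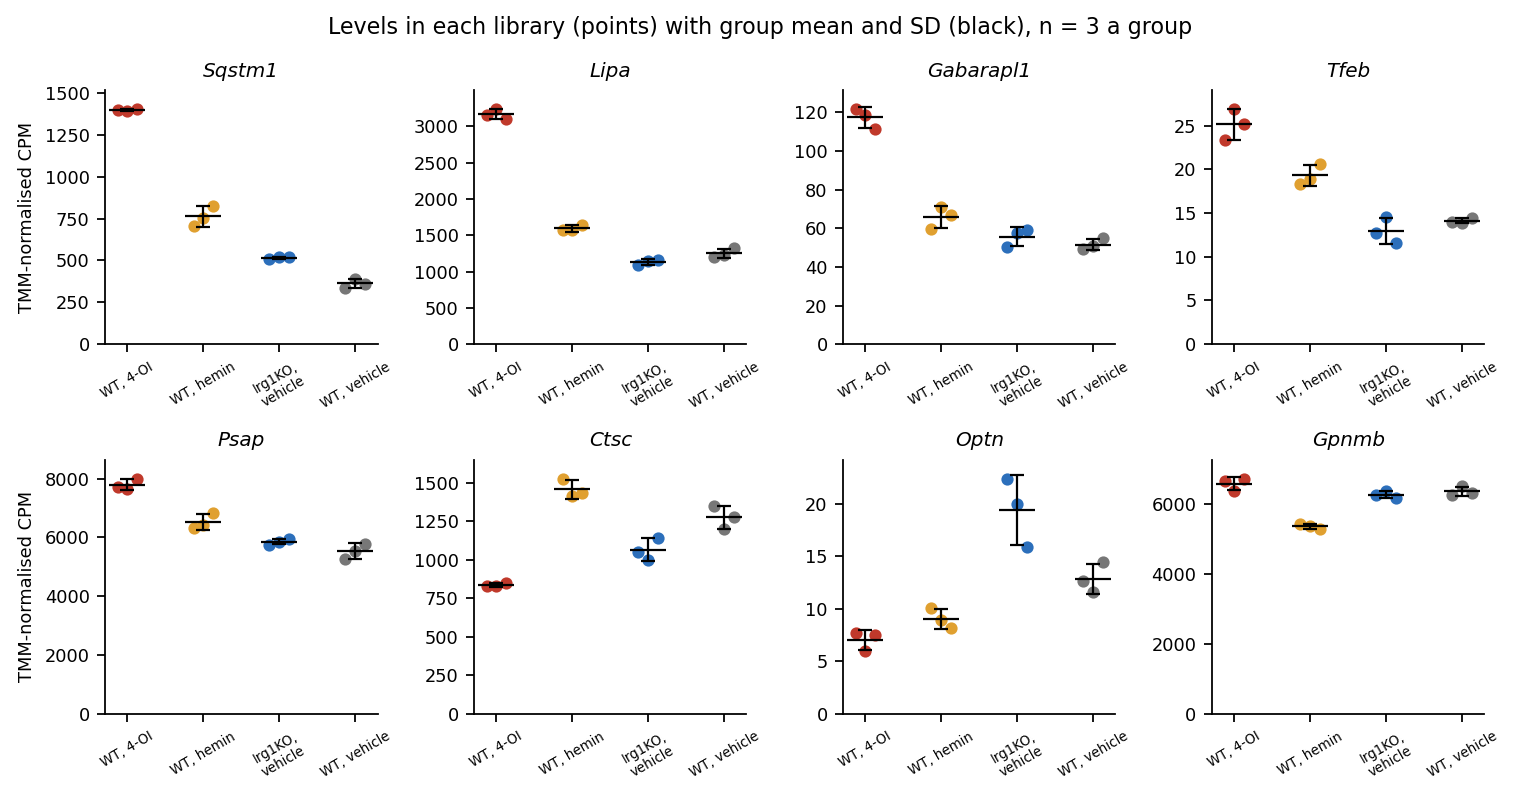
TMM-normalised CPM (vertical axis, from 0) of 8 genes in each library, with points for the 3 replicates of each group and black marks for the mean and SD. Sqstm1, Lipa and Ctsc separate all 4 groups, and Gpnmb is lowest in the 3 hemin libraries.

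The 8 genes of the autophagy machinery split by family. With 4-OI, the LC3 and GABARAP genes and Ulk1 rose, 5 in all (62.5%, where 25.4% of all genes were higher), and Wipi1 fell. Gabarapl1, an LC3-like protein that coats autophagosomes, had 122, 119 and 112 CPM in the 4-OI libraries, 59.6, 71.2 and 66.9 CPM in the hemin libraries, 50.2, 57.7 and 59.2 CPM in the Irg1KO libraries and 49.2, 50.6 and 54.8 CPM in the vehicle libraries. The 4-OI libraries were far above all others, hemin was above vehicle, and Irg1KO overlapped with vehicle. Gabarapl1 rose with 4-OI (1.19, SE 0.065, adjusted p = 1.06e-17) and with hemin (0.37, SE 0.067, adjusted p = 0.000114), and more with 4-OI than with hemin (0.83, SE 0.065, adjusted p = 4.69e-13). In Irg1KO it had 0.12 (adjusted p = 0.167), which passed without Irg1KO replicate 1 (0.18, adjusted p = 0.0436). Gabarap and Map1lc3b, of the same family, rose with 4-OI by 0.31 and 0.30. With hemin Gabarap had 0.13 (adjusted p = 0.103), called without hemin replicate 1 (0.20, adjusted p = 0.00519), and without that library the higher level with 4-OI than with hemin (0.18) was not called (0.11, adjusted p = 0.101). Ulk1 rose with 4-OI (0.34, SE 0.082, adjusted p = 0.000664).

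Map1lc3a and Wipi1 rose in Irg1KO. Map1lc3a, a scarce LC3 gene, had 8.82, 8.79 and 8.80 CPM in the 4-OI libraries, 5.20, 7.30 and 7.46 CPM in the hemin libraries, 11.7, 13.3 and 11.2 CPM in the Irg1KO libraries and 6.85, 6.14 and 8.39 CPM in the vehicle libraries. Irg1KO was highest, and hemin and vehicle overlapped. The rise in Irg1KO was 0.80, SE 0.13 (adjusted p = 2.31e-06). With 4-OI Map1lc3a was called against vehicle (0.34, SE 0.14, adjusted p = 0.0378) and against hemin (0.38, SE 0.15, adjusted p = 0.0347). The first was lost without any 1 of the 4-OI replicates, without vehicle replicate 1 or 2 (adjusted p = 0.0695 to 0.231), with upper-quartile factors and with DESeq2 (adjusted p = 0.0634 and 0.0744). The other was lost without any 4-OI replicate or hemin replicate 1 (adjusted p = 0.063 to 0.19).

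Wipi1, which binds the lipid PI3P on forming autophagosomes, had 30.4, 28.4 and 31.2 CPM in the 4-OI libraries, 33.6, 33.6 and 32.8 CPM in the hemin libraries, 54.5, 51.6 and 51.0 CPM in the Irg1KO libraries and 34.6, 34.6 and 34.5 CPM in the vehicle libraries. The vehicle libraries were nearly identical, Irg1KO was above them and 4-OI below. The rise in Irg1KO was 0.60, SE 0.063 (adjusted p = 4.13e-10), and the fall with 4-OI (-0.21, SE 0.068, adjusted p = 0.00993) was lost without 4-OI replicate 2 (-0.17, adjusted p = 0.0777). Becn1 (beclin 1, of the lipid kinase complex) and Atg7 (the enzyme that starts LC3 conjugation) were not called in any comparison. Their log2 values were -0.06 and 0.06 with 4-OI, -0.02 and 0.02 with hemin and 0.07 and -0.12 in Irg1KO, and Atg7 passed in Irg1KO without vehicle replicate 1 (adjusted p = 0.0464).

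All 3 TFEB family genes were called higher with 4-OI in the count test, beside 25.4% of all genes. Of the 3, Tfe3 did not pass on the FPKM scale. Tfeb had 23.3, 26.9 and 25.2 CPM in the 4-OI libraries, 18.4, 19.0 and 20.6 CPM in the hemin libraries, 12.7, 14.6 and 11.6 CPM in the Irg1KO libraries and 14.0, 13.9 and 14.4 CPM in the vehicle libraries. The 4-OI libraries were highest, hemin lay between, and Irg1KO overlapped with vehicle. Tfeb rose with 4-OI (0.84, SE 0.092, adjusted p = 8.52e-10) and with hemin (0.46, SE 0.096, adjusted p = 0.00049), more with 4-OI than with hemin (0.38, SE 0.092, adjusted p = 0.000988), and in Irg1KO had -0.10 (adjusted p = 0.426). Mitf had 63.4, 67.0 and 57.0 CPM in the 4-OI libraries, 63.2, 58.7 and 59.1 CPM in the hemin libraries, 44.2, 44.1 and 44.1 CPM in the Irg1KO libraries and 50.1, 52.1 and 50.4 CPM in the vehicle libraries. It rose with 4-OI (0.30, SE 0.062, adjusted p = 9.09e-05) and with hemin (0.24, SE 0.062, adjusted p = 0.00487) and fell in Irg1KO (-0.21, SE 0.063, adjusted p = 0.00737), and 4-OI and hemin overlapped (adjusted p = 0.471).

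Tfe3 had 143, 164 and 150.0 CPM in the 4-OI libraries, 134, 146 and 146 CPM in the hemin libraries, 113, 118 and 121 CPM in the Irg1KO libraries and 122, 134 and 130.5 CPM in the vehicle libraries. Levels with 4-OI were above those with vehicle, and Irg1KO was just below vehicle. Tfe3 rose with 4-OI (0.25, SE 0.053, adjusted p = 0.000181), though not on log2(FPKM + 1) (adjusted p = 0.137). With hemin it had 0.14 (adjusted p = 0.0582) and passed without hemin replicate 1 or vehicle replicate 2 (adjusted p = 0.0186 and 0.0391). In Irg1KO it had -0.13 (adjusted p = 0.0507) and passed as lower without Irg1KO replicate 3 or vehicle replicate 1 (adjusted p = 0.0448 and 0.0167), and with RLE or upper-quartile factors, no filter, DESeq2 and the fit limited to both groups (adjusted p = 0.0148 to 0.0378).

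A wider list of 178 other lysosome and autophagy genes, of which 164 were tested, held genes that rose and genes that fell in each comparison with vehicle. With 4-OI 53 were higher (32.3%) and 38 lower (23.2%), where 25.4% and 25% of all genes were. With hemin 18 were higher (11%) and 16 lower (9.76%), where 9.48% and 7.74% of all genes were, and in Irg1KO 22 were higher (13.4%) and 36 lower (22%), where 23.5% and 16.3% of all genes were. The median log2 fold change was 0.0218 with 4-OI, -3e-04 with hemin and -0.0304 in Irg1KO. Sort1 (sortilin, which sorts prosaposin to lysosomes) was the named gene with the largest rise after 4-OI, at 533 against 136 CPM with vehicle (1.96, SE 0.054). It also rose with hemin (0.81) and fell in Irg1KO (-0.46). Slc11a1 (NRAMP1, the metal exporter of phagosomes) rose with 4-OI (1.18) and hemin (0.53).

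Of 17 other proton pump subunits tested, 10 rose with 4-OI (58.8%) and 3 fell (17.6%), where 25.4% and 25% of all genes did. Atp6v0b of the membrane sector rose by 0.69 and Atp6v0d2 by 0.62, while Atp6ap2 fell by 0.26. With hemin 2 of the 17 rose (11.8%) and 4 fell (23.5%), beside 9.48% and 7.74% of all genes, and in Irg1KO likewise 2 and 4, beside 23.5% and 16.3%. Among 34 other hydrolases, 7 rose with 4-OI (20.6%) and 12 fell (35.3%), where 25.4% and 25% of all genes did. The hyaluronidase Hyal1 had -1.42 with 4-OI and -0.77 with hemin, and was called higher in Irg1KO. Hgsnat, which acetylates heparan sulfate for its breakdown, had -0.84 with 4-OI and -0.53 with hemin, and also -0.60 in Irg1KO. Of 10 other cathepsins and proteases 1 rose and 1 fell with 4-OI (10% each), where 25.4% and 25% of all genes did. These were Ctsh (0.25) and the asparaginyl protease Lgmn (-0.51).

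Of 34 other autophagy machinery genes, 13 rose with 4-OI (38.2%) and 7 fell (20.6%), where 25.4% and 25% of all genes did. Wdr45, a relative of Wipi1, rose by 1.09, Atg9a, the membrane-spanning scramblase, by 0.77, and Ulk2 fell by 0.47. Receptors of endoplasmic reticulum autophagy differed, with Ccpg1 higher (0.66) and Retreg1 lower (-0.49). Retreg1 was also lower in Irg1KO (-0.49). Among 23 TFEB regulators and partners 6 rose (26.1%) and 8 fell (34.8%) with 4-OI, where 25.4% and 25% of all genes did. Tfec, the remaining MITF-TFE gene, rose by 0.41 with 4-OI and 0.25 with hemin. Fnip1, a folliculin partner, fell by 0.75 with 4-OI and 0.35 with hemin, and was also called lower in Irg1KO. In Irg1KO the named gene that rose most was Ctsk, the cathepsin of osteoclasts and fibroblasts, at 53.9 against 16.7 CPM in WT vehicle (1.70, SE 0.078). Stromal markers were higher in those libraries. Ctsk is itself listed as an osteoclast marker, and of the 3 such markers tested it was the only 1 called higher.

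**Figure D4:**
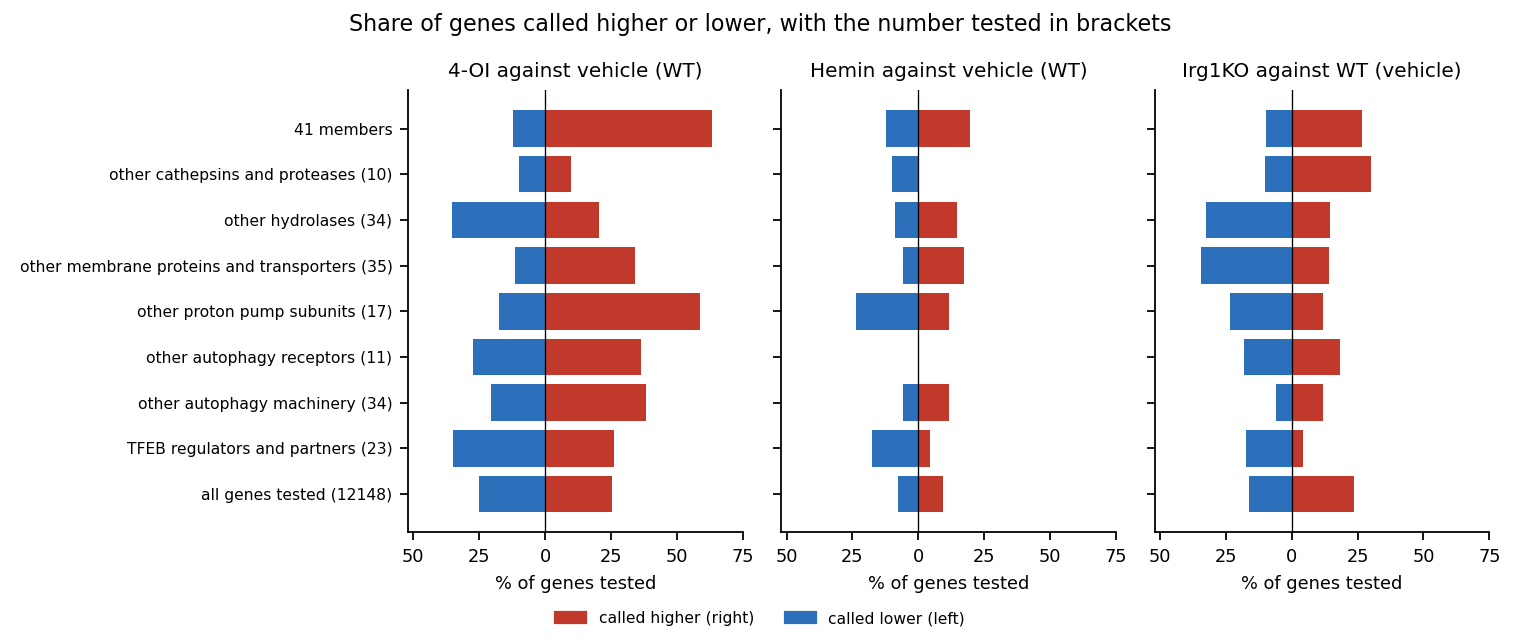
Percent of genes tested that were called higher (red, to the right) or lower (blue, to the left) for the 41 members, for each list of other lysosome and autophagy genes and for all 12148 genes, in the 3 comparisons with WT vehicle. The members reach 63.4% higher with 4-OI, where all genes, not matched to the members for level, reach 25.4%. The members and the lists were chosen with earlier results of these data known.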

How the data were processed

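Expected counts per gene and FPKM (counts per transcript length and library total) were taken as the authors deposited them, with the transcript lengths in the same files, per the file headers. The tools named in the submitters' processing notes are RSEM, Bowtie2, StringTie and HISAT2, and the builds mm39 and GRCm39; tool versions are not given in the sources used here. RSEM divides reads shared between genes, and expected counts were whole in every library for 36 of the 41 genes, in some libraries for 4 (Glb1, Gusb, Tfeb and Map1lc3b) and in none for Asah1. Whether counting used strand is not given in the sources used here.

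Counts were rounded, filtered with filterByExpr (12148 genes left, all 41 members among them), scaled with TMM and tested in R 4.3.3 with edgeR 4.0.16 (robust quasi-likelihood F test, 1 fit of 12 libraries, SE as the log2 fold change over the root of F), with a biological coefficient of variation of 4.71%. Benjamini-Hochberg adjustment ran over all genes tested. The test was checked on simulated data. Alternatives used RLE or upper-quartile factors, no filter, a filter of 10 counts in 6 libraries, DESeq2 1.42.0, limma 3.58.1 on log2(FPKM + 1) or log2(FPKM + 0.1), only the groups compared, a replicate block, and each library left out.

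The members and all lists were chosen with earlier results of these data known. Genes with values in every library are, per comparison, the 4 called members with the lowest adjusted p in each direction, and Sqstm1, Gpnmb and the TFEB family. Of other lists, up to 2 called genes with the largest change in each direction and a mean of at least 5 CPM could be named. Ctsd and Lamp1 fall outside the rule and were chosen after their values were seen. Replicates of a group differed with a chi-square per degree of freedom of 2.37 to 4.82, above the value of 1 for counting noise; repeat libraries of one culture could also exceed 1. The result of 1 other gene is not reported here.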

Additional observations from a re-analysis of the deposited data

How the results depend on the processing

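No called member changed direction under any alternative; members that were not called sometimes changed sign. On log2(FPKM + 1), members called higher numbered 15 with 4-OI (26 in the count test), 5 with hemin (8) and 7 in Irg1KO (11). Over all genes 1655 were higher with 4-OI, and 627 were higher and 1449 lower with hemin. In Irg1KO 1946 of all genes were higher, and 1658 were higher with 4-OI than with hemin. On log2(FPKM + 0.1), 15, 5 and 7 members were higher in the same comparisons and 15 with 4-OI against hemin (23), and over all genes 1661 were higher with 4-OI and 626 higher and 1417 lower with hemin. The shift of the median of all genes with 4-OI was -0.121 and -0.139 on these scales. The median of the members stood 0.171 and 0.189 above it, against 0.194 in the count test. FPKM is scaled to the library total, without TMM factors. These factors were 0.9444 to 0.9495 in the 4-OI libraries and 0.9926 to 1.003 in the hemin libraries. In the Irg1KO and vehicle libraries they were 1.012 to 1.021 and 1.033 to 1.05. Their part in the shift was not tested. Members lower in Irg1KO numbered 7 with RLE factors and 8 with DESeq2, beside 20.1% and 17.2% of all genes, against 4, beside 16.3%. Leaving out 1 library gave 3 to 5 members lower with hemin (lowest without hemin replicate 3), beside 671 to 916 of all genes. In Irg1KO it gave 3 to 7 lower (highest without vehicle replicate 1), beside 1591 to 1844 of all genes. With 4-OI it gave 24 to 25 higher and 4 to 5 lower, beside 2711 to 2911 and 2682 to 2883 of all genes.

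Replicate numbers are shared by the groups, and the labels do not say whether they pair the libraries. Over 18 pairs, same-numbered libraries had deviations from the group means that correlated by -0.079 to 0.067, and 4 of 12 libraries were closest to their own number. Weak correlations cannot settle whether same-numbered libraries share an animal or a culture. With a replicate block, 26 members were higher and 5 lower with 4-OI, where 25.5 and 25.2% of all genes were. With hemin 10 and 5 were, beside 9.74 and 8.03% of all genes, and in Irg1KO 11 and 5, beside 23.6 and 16.6%. With 4-OI against hemin 23 and 5 were, beside 20.8 and 21.9%. The calls it added were Gaa and Tfe3 with hemin (adjusted p = 0.0417 and 0.0306), Tfe3 in Irg1KO (0.0259) and Optn for 4-OI against hemin (0.0352), and it removed none. With 3 libraries a group, depth and replicate number limit what can be said of Map1lc3a, Optn and Tfeb, the members with the fewest counts.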
